A study of Homo sapiens with 6 samples.

Results

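The 8 genes described here encode the subunits of human condensin I and condensin II. They were chosen by name, by mapping the NCBI Gene IDs of the deposited count tables to symbols. No measured value entered that rule, but earlier results of these data were known when the choice was made. The 2 shared subunits are SMC2 and SMC4. Condensin I alone has 3 (NCAPD2, NCAPG and NCAPH), and condensin II alone has 3 (NCAPD3, NCAPG2 and NCAPH2). All 8 were found among 28395 gene IDs, and all 8 passed the filter on low counts that left 16381 genes for testing. The cells were A375, a human melanoma cell line, sampled after 72 h in 1 of 3 treatments, and RNA-seq was done on 2 libraries of each. Control cells received DMSO at 0.01%, another group received 1 µM palbociclib, which inhibits the G1 kinases CDK4 and CDK6, and the last received 500 nM GSK3326595, which inhibits the arginine methyltransferase PRMT5. All groups share the same cell line and supplemented RPMI medium, and no other line was used.

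Condensins are ring-shaped ATPases that extrude loops of DNA and compact chromosomes for mitosis. SMC2 and SMC4 pair at a hinge and carry the ATPase heads, a kleisin subunit (NCAPH or NCAPH2) bridges the heads, and HEAT-repeat subunits (NCAPD2 and NCAPG, or NCAPD3 and NCAPG2) bind the kleisin and DNA. Condensin II is nuclear throughout the cell cycle and begins condensation in prophase, whereas condensin I is largely cytoplasmic in interphase and reaches the chromosomes after the nuclear envelope breaks down. Several of these genes are known to be transcribed mainly in dividing cells.

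Total counts ranged from 16589153 to 20842099 per library, and each condensin gene had between 398 and 10963 counts in a library. Levels are CPM, read counts scaled to a common library size with TMM factors. A gene was called when edgeR's quasi-likelihood test, fitted to all tested genes, gave a Benjamini-Hochberg adjusted p under 0.05. Nothing in the labels says that the libraries of a group came from separate cultures, so any p-value here rests on a spread that may be technical. Of 6 melanocyte lineage markers, SOX10 lay between 122 and 237 CPM and MITF between 57.4 and 87.4 CPM, PMEL and MLANA were at 2.45 CPM or less, TYR was listed at 0 in 5 of the 6 libraries and DCT did not exceed 0.466 CPM. The pigment genes that define differentiated melanocytes were thus at or near 0. Summed over the 6 genes, the melanocyte list ran from 225 to 254 CPM in DMSO, 274 to 301 CPM with palbociclib and 205 to 257 CPM with GSK3326595. The 3 epithelial markers summed to 2.03 to 2.17 CPM in DMSO, 7.26 to 8.65 CPM with palbociclib and 2.74 to 3.50 CPM with GSK3326595, mostly KRT14, with EPCAM at 0.711 CPM or less and CDH1 at 0 in both DMSO libraries. The 3 fibroblast and endothelial markers summed to 16.8 to 17.5 CPM in DMSO, 7.73 to 8.99 CPM with palbociclib and 28.1 to 31.6 CPM with GSK3326595, mostly COL1A1. The 3 blood cell markers summed to 81.8 to 89.1 CPM, 66.7 to 74.0 CPM and 63.3 to 64.4 CPM in the same order, almost all CD68, with PTPRC at 0.117 CPM or less and CD3E at 0.0583 CPM or less. The part of these markers in the condensin results was not tested.

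With palbociclib, all 8 condensin transcripts fell. The largest falls were those of NCAPG and NCAPH, both in condensin I, to 31.7% and 32.7% of the DMSO level. The smallest was that of NCAPD3, a condensin II subunit, to 58.7%. Among all genes tested in this comparison 39.5% were called, 20.2% lower and 19.3% higher, and 37.4% had both treated libraries below both controls. The median log2 fold change was -0.02, against -1.24 over the 8 condensin genes. In these bulk libraries a smaller share of dividing cells and less RNA per cell cannot be told apart. MKI67, a marker of cycling cells, fell alongside, from 550 and 572 CPM in DMSO to 144 and 171 CPM, and its part in the condensin result was not tested.

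Of the shared ATPase subunits, SMC4 was at 314 and 342 CPM in the DMSO libraries and at 124 and 115 CPM with palbociclib. SMC2 was at 154 and 173 CPM in DMSO and at 80.2 and 76.8 CPM with palbociclib. The treated libraries lay below the controls for both genes. The log2 change was -1.46 ± 0.0925 (SE; edgeR adjusted p = 3.65e-07) for SMC4 and -1.06 ± 0.0859 (edgeR adjusted p = 2.24e-06) for SMC2.

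In condensin I, the HEAT-repeat gene NCAPG went from 136 and 160 CPM in DMSO to 43.7 and 50.01 CPM with palbociclib, a log2 change of -1.66 ± 0.105 (SE; edgeR adjusted p = 3.68e-07). NCAPH, the kleisin gene, went from 63.6 and 67.0 to 20.2 and 22.5 CPM (-1.61 ± 0.101, edgeR adjusted p = 3.40e-07). NCAPD2, the other HEAT-repeat gene, went from 520 and 571 to 228 and 245 CPM (-1.20 ± 0.0971, edgeR adjusted p = 2.14e-06). In every case the treated libraries were below both controls, by more than the spread within either group. Only 1.36% of tested genes had a log2 fold change as low as that of NCAPG, and 3.58% had one as low as that of NCAPD2.

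In condensin II, NCAPG2, the counterpart of NCAPG, went from 106 and 119 CPM to 44.1 and 48.9 CPM, a log2 change of -1.27 ± 0.0942 (SE; edgeR adjusted p = 1.14e-06). The kleisin gene NCAPH2 went from 48.7 and 49.2 to 22.3 and 20.4 CPM (-1.20 ± 0.103, edgeR adjusted p = 3.55e-06). NCAPD3, the counterpart of NCAPD2, went from 234 and 250 to 143 and 142 CPM (-0.77 ± 0.0834, edgeR adjusted p = 2.35e-05). The fall of NCAPD3 was the smallest of the 8, and its 95% interval, -0.95 to -0.59, did not reach the interval of any other condensin I or II subunit except SMC2, whose interval was -1.25 to -0.87. All 8 genes were called in this comparison under each of the 13 alternatives tried, leaving out any single library included.

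**Figure D1:**
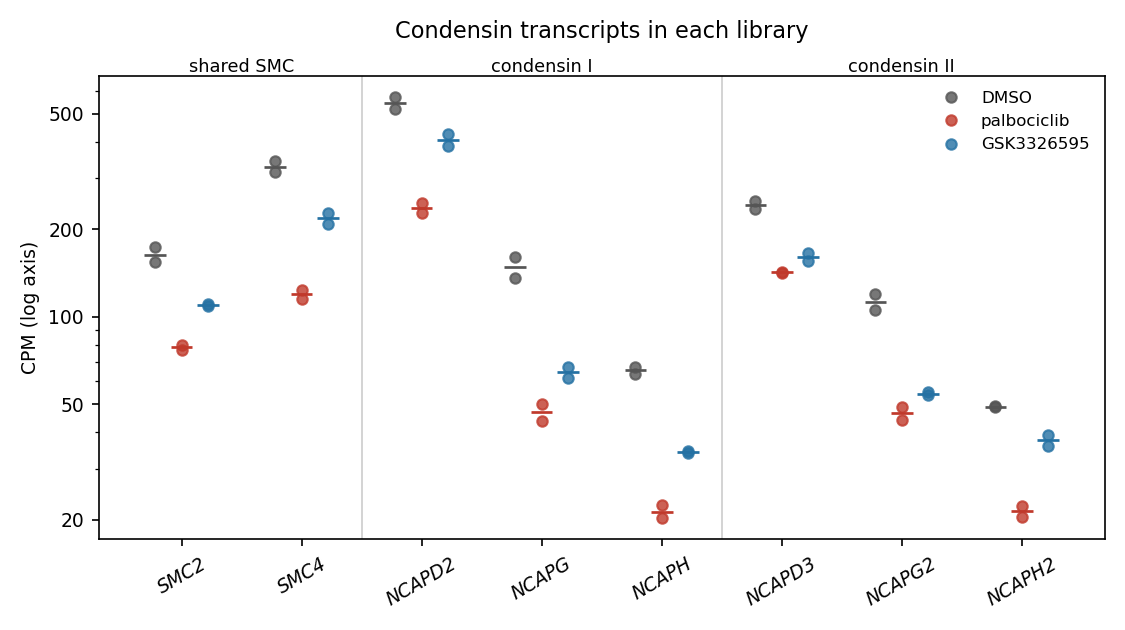
CPM (log axis) of the 8 condensin genes, with 1 point per library (2 per group) and a bar at the group mean. For every gene the palbociclib libraries are lowest, the GSK3326595 libraries intermediate and the DMSO libraries highest, with no overlap between groups.

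As the 8 genes fell together, their promoters were searched for elements known from cell cycle promoters. RefSeq promoter windows (GRCh38, 250 bases before to 50 after a transcription start) were given for 7 of the genes, as 10 windows. NCAPH2 had none. Both strands were searched for the CHR letters TTTGAA or TTCGAA, known from genes bound by the DREAM and B-MYB complexes, for CCAAT, which NF-Y binds, and for the E2F letters TTCCCGC or TTCGCGC or, as further forms, TTGCCGC or TTGGCGC. The stretches printed are the longest parts of the 250 bases before the start that lie in no GENCODE 29 exon, 5′ to 3′ on the strand of the gene, with matches on either strand in capitals. They are shown for the counterparts NCAPG and NCAPG2 and for NCAPH, because NCAPG and NCAPH fell most with palbociclib and differ in these letters.
NCAPG (chr4:17810759-17810901, plus strand): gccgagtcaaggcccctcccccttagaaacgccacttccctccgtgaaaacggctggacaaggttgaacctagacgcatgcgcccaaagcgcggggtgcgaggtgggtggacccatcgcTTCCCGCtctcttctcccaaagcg
NCAPG2 (chr7:158704830-158705054, minus strand): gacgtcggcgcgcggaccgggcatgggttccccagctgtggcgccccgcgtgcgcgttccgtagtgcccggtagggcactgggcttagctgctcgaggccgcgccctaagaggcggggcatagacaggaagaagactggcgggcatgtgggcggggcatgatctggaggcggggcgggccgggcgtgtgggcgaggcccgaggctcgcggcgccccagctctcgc
NCAPH (chr2:96335516-96335765, plus strand): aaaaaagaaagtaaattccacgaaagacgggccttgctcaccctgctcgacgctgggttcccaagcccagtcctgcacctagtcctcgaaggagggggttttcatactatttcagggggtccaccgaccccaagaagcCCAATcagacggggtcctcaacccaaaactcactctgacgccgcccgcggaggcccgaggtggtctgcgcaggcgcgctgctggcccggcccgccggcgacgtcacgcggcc

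The stretch of NCAPG holds E2F letters whose first base is at -101, counted from the start. A further E2F match at -45 and CHR letters at -35 lie beyond the printed part, in annotated exon. The stretch of NCAPG2 holds no match, and its CHR letters lie at 36, after the start. The stretch of NCAPH holds CCAAT at -112 and neither CHR nor E2F letters.

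Over the whole windows, CHR letters were found in at least 1 window of 6 of the 7 genes, NCAPH being the exception, against 19.5% of the 27305 genes in the same table. Positions are counted from the start of the window that holds the match. They lie at -145 in NCAPD2, at -3 in NCAPD3, at -3 on the opposite strand in SMC2 and at -75 on the opposite strand in SMC4. CCAAT was found in 3 of 7 genes against 39.7% of genes, with 4 matches in NCAPD2, 2 in NCAPD3 and 1 in NCAPH. E2F letters were found in 3 of 7 against 15.3%, in NCAPG, at -249 in NCAPD3 and at -130 in SMC4. Counted by window, CHR letters were in 6 of 10 against 16.4% of 35116 windows, CCAAT in 3 against 34.6% and E2F letters in 3 against 13%. The NCAPD3 window next to its annotated start (chr11:134225462-134225711 before the start) held no match, so the NCAPD3 matches belong to another start. For SMC2, 1 window held the CHR letters and another held no match. All of these are matches of letters and not shown to be sites.

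With GSK3326595, all 8 condensin transcripts also fell, by log2 fold changes from -0.38 to -1.20. NCAPG, NCAPG2 and NCAPH fell most, to 43.4%, 48.3% and 52.3% of the DMSO level, and NCAPD2 and NCAPH2 least, to 74.5% and 76.7%. Among all genes tested 18.8% were called in this comparison, 10.2% lower and 8.58% higher, and 29.7% had both treated libraries below both controls. The median log2 fold change was -0.59 over the condensin genes and -0.00 over all genes. MKI67 stood at 302 and 298 CPM, between its DMSO and palbociclib levels, and its part in the result was not tested here either.

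NCAPG was at 67.0 and 61.5 CPM with GSK3326595, a log2 change against DMSO of -1.20 ± 0.104 (SE; edgeR adjusted p = 3.37e-05). Its condensin II counterpart NCAPG2 was at 55.0 and 53.7 CPM (-1.05 ± 0.0939, edgeR adjusted p = 3.98e-05). The condensin I kleisin NCAPH was at 33.9 and 34.4 CPM (-0.93 ± 0.0984, edgeR adjusted p = 8.37e-05). Every one of these treated libraries lay below both DMSO libraries.

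The SMC subunits and NCAPD3 formed a middle group. SMC4 was at 228 and 208 CPM (-0.59 ± 0.0905, edgeR adjusted p = 0.000993), SMC2 at 111 and 109 CPM (-0.57 ± 0.085, edgeR adjusted p = 0.000829) and NCAPD3 at 166 and 156 CPM (-0.59 ± 0.0833, edgeR adjusted p = 0.000599). NCAPD2 was at 424 and 388 CPM (-0.43 ± 0.0957, edgeR adjusted p = 0.00997), which was no longer called when DMSO replicate 2 was left out (edgeR adjusted p = 0.075). The condensin II kleisin NCAPH2 was at 39.2 and 35.9 CPM (-0.38 ± 0.0998, edgeR adjusted p = 0.0201). It was no longer called when DMSO replicate 1 (edgeR adjusted p = 0.0533), DMSO replicate 2 (0.0772) or GSK3326595 replicate 2 (0.0951) was left out, and 7, 6 and 7 of the 8 genes were called in those fits.

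**Figure D2:**
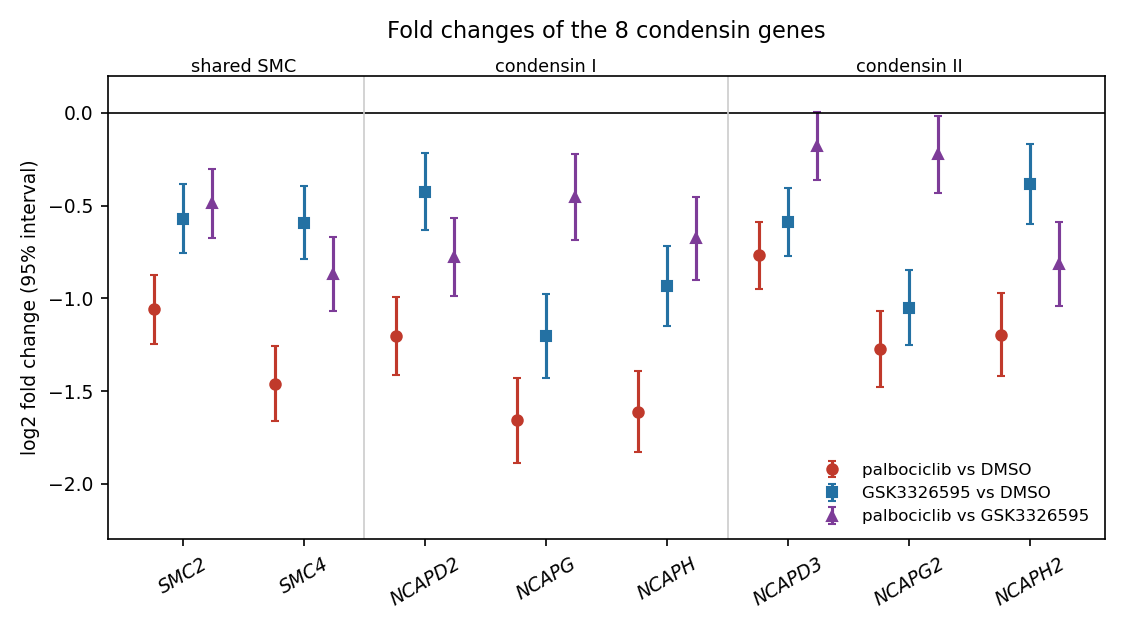
Log2 fold changes of the 8 condensin genes from the edgeR fit, with approximate 95% intervals, for each inhibitor against DMSO and for palbociclib against GSK3326595. Against DMSO every interval lies below 0; for palbociclib against GSK3326595 the interval of NCAPD3 reaches 0.

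Palbociclib and GSK3326595 were compared directly, at 1 dose each and the same 72 h. The doses are of different agents against different targets and are not matched in effect. Of the 8 condensin genes, 6 were called lower with palbociclib, where 34.8% of all genes tested were called, 18.2% lower and 16.6% higher. All 8 had both palbociclib libraries below both GSK3326595 libraries, as had 35.7% of all genes tested. SMC4 was at 54.8% of its GSK3326595 level (log2 fold change -0.87 ± 0.0919, edgeR adjusted p = 4.32e-05), NCAPH2 at 56.9% (-0.81 ± 0.104, edgeR adjusted p = 0.000135) and NCAPD2 at 58.3% (-0.78 ± 0.0966, edgeR adjusted p = 0.000114). NCAPH differed by -0.68 ± 0.103 (edgeR adjusted p = 0.000416) and SMC2 by -0.49 ± 0.0861 (edgeR adjusted p = 0.00114).

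NCAPG differed by -0.45 ± 0.106 (edgeR adjusted p = 0.00591), a call lost without palbociclib replicate 1 (log2 fold change -0.36, edgeR adjusted p = 0.0872). The condensin II genes NCAPG2 and NCAPD3 were not called. Their log2 differences were -0.22 with a 95% interval of -0.43 to -0.02 (edgeR adjusted p = 0.0894) and -0.18 with an interval of -0.36 to 0.00 (edgeR adjusted p = 0.119). When edgeR was given the replicate number as a block, it called both lower with palbociclib (adjusted p = 0.0124 for NCAPG2 and 0.0263 for NCAPD3), and all 8 genes were then called. When 1 library at a time was left out, neither was called, and the difference ran from -0.30 to -0.15 for NCAPG2, lowest in size without palbociclib replicate 1 (edgeR adjusted p = 0.466), and from -0.22 to -0.12 for NCAPD3. The order palbociclib below GSK3326595 below DMSO, with no overlap between libraries, held for all 8 condensin genes and for 9.7% of the genes tested.

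Condensin I was then compared with condensin II. The condensin I genes fell further with palbociclib, by a mean log2 fold change of -1.49 against -1.08 for condensin II, a difference of -0.41. With GSK3326595 the means were -0.85 and -0.67, a difference of -0.18. As a level per library, the mean log2 CPM of the condensin I genes exceeded that of the condensin II genes by 0.63 and 0.69 in DMSO, by 0.17 and 0.32 with palbociclib and by 0.48 and 0.48 with GSK3326595. The groups did not overlap. The pooled SD between replicates of this difference was 0.0641. The differences between complexes are given as descriptions, and no test was made of a mean over chosen genes.

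The subunit pairs did not all move alike. For the HEAT-repeat pair NCAPD2 and NCAPD3 the log2 CPM ratio was 1.15 and 1.19 in DMSO, 0.67 and 0.79 with palbociclib, and 1.35 and 1.32 with GSK3326595. Palbociclib thus lowered the ratio, and the GSK3326595 libraries lay above the DMSO libraries. For NCAPG and NCAPG2 it was 0.36 and 0.43 in DMSO, -0.01 and 0.03 with palbociclib, and 0.28 and 0.20 with GSK3326595, with both treated groups below DMSO.

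For the kleisin pair NCAPH and NCAPH2 the ratio was 0.38 and 0.44 in DMSO, -0.14 and 0.14 with palbociclib, and -0.21 and -0.06 with GSK3326595. Here the libraries of the 2 inhibitors overlapped, and both lay below DMSO; within each replicate number the GSK3326595 library was the lower. The kleisins were the pair whose ratio moved furthest with GSK3326595, by -0.55. The shared subunits also changed relative to each other. The ratio of SMC2 to SMC4 was -1.03 and -0.98 in DMSO, -0.63 and -0.58 with palbociclib, and -1.04 and -0.93 with GSK3326595, so that only the palbociclib libraries stood apart.

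**Figure D3:**
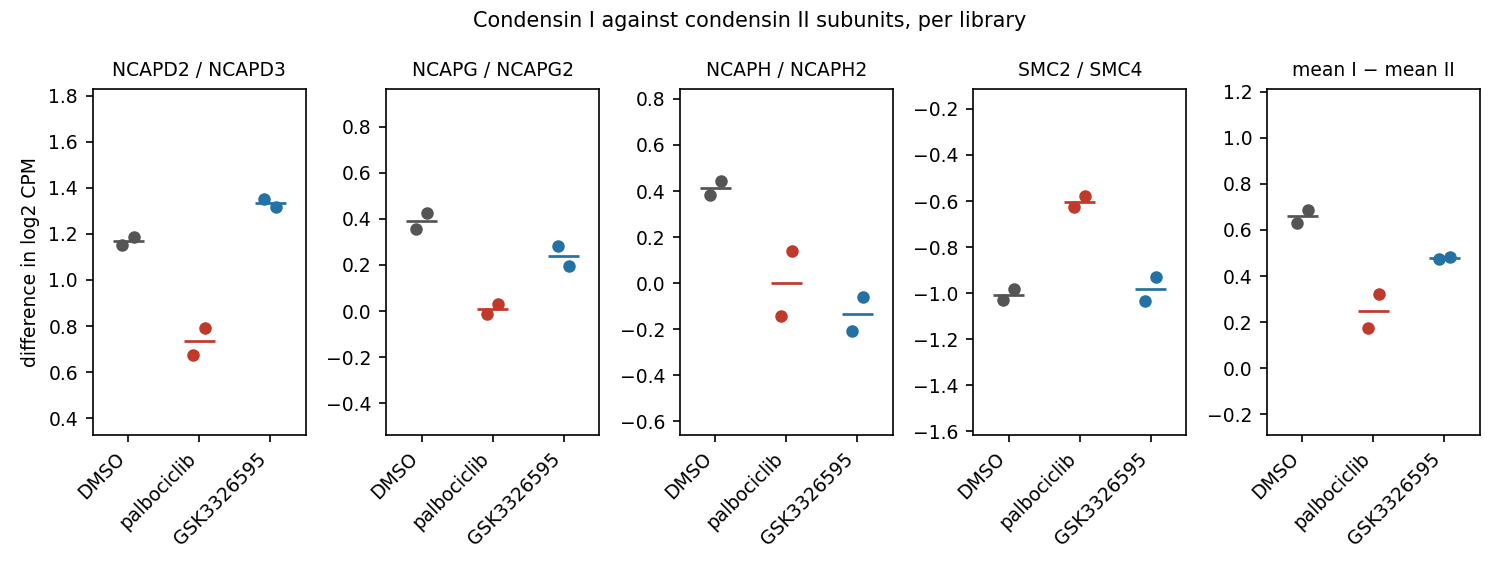
Difference in log2 CPM between paired subunits, and between the means of the condensin I and condensin II genes, with 1 point per library, a bar at the group mean and the same span on each vertical axis. All 3 condensin I over II pairs are lower with palbociclib than with DMSO. With GSK3326595 NCAPD2 over NCAPD3 is higher, NCAPG over NCAPG2 and NCAPH over NCAPH2 are lower, and SMC2 over SMC4 overlaps DMSO.

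Profiles over the 6 libraries, centred on each gene's mean log2 CPM, were compared among the condensin genes. The closest of the 28 pairs of condensin genes was NCAPD2 of condensin I with NCAPH2 of condensin II, at a Euclidean distance of 0.189. The next pairs each held a shared subunit, SMC4 with NCAPH2 at 0.289, SMC4 with NCAPD2 at 0.3015 and SMC2 with NCAPD2 at 0.323. NCAPG and NCAPH, both of condensin I, followed at 0.327. The farthest pair was NCAPG with NCAPD3, at 0.925.

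Levels of different genes were compared as CPM per kilobase of exon in the GENCODE 29 annotation. In DMSO, NCAPD2 was highest at 98.3 ± 6.47 (SD, n = 2), followed by SMC4 at 50.2 ± 2.97, NCAPD3 at 40.4 ± 1.96, NCAPG at 31.7 ± 3.73, SMC2 at 26.0 ± 2.16, NCAPH at 21.7 ± 0.789, NCAPG2 at 19.6 ± 1.65 and NCAPH2 at 19.3 ± 0.14 CPM per kilobase. Only the last neighbours, NCAPG2 and NCAPH2, overlapped. With palbociclib NCAPD2 was again highest at 42.7 ± 2.17 CPM per kilobase, NCAPD3 at 23.7 ± 0.155 stood above SMC4 at 18.2 ± 1.00, and NCAPH at 7.09 ± 0.532 was lowest. With GSK3326595 the lowest level was that of NCAPG2, at 9.46 ± 0.169 CPM per kilobase, and NCAPH2 at 14.8 ± 0.914 overlapped NCAPG at 13.8 ± 0.845.

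Some condensin exons are shared with neighbouring genes. In GENCODE 29, 35% of the exon bases of NCAPG (Gene ID 64151; GRCh38 chromosome 4, 17810979 to 17844865) overlap exons of LCORL on the opposite strand, and 23.9% of those of SMC4 (Gene ID 10051; chromosome 3, 160399650 to 160434953) overlap exons of TRIM59 and 3.5% exons of IFT80. The strand setting of the counting is not given in the sources used here, so reads from these stretches cannot be told apart. LCORL was at 43.7 and 43.3 CPM in DMSO, 21.2 and 18.01 CPM with palbociclib and 31.7 and 25.9 CPM with GSK3326595. TRIM59 was at 13.4 and 13.7 CPM in DMSO, 8.74 and 7.98 CPM with palbociclib and 14.2 and 11.8 CPM with GSK3326595. The log2 fold changes of LCORL were -1.15 with palbociclib and -0.60 with GSK3326595, and those of TRIM59 -0.70 and -0.06. IFT80 was at 34.4 and 29.5 CPM in DMSO, 26.7 and 19.6 CPM with palbociclib and 35.2 and 19.2 CPM with GSK3326595. Its log2 fold changes against DMSO were -0.47 and -0.23 (edgeR adjusted p = 0.117 and 0.514). Both were called lower by edgeR with the replicate block (-0.48 and -0.27, adjusted p = 0.00015 and 0.0445). The palbociclib change was also called when the edgeR fit held only the 2 groups (-0.47, adjusted p = 0.0102). The GSK3326595 change was -0.73 with GSK3326595 replicate 1 left out, where that group rests on replicate 2 alone. The overlap was 8.35% for NCAPD2 (Gene ID 9918; chromosome 12, 6494102 to 6531955), with MRPL51, and 1.6% for NCAPD3 (Gene ID 23310; chromosome 11, 134150113 to 134225461). SMC2 (Gene ID 10592; chromosome 9, 104088263 to 104141419), NCAPH (Gene ID 23397; chromosome 2, 96335766 to 96377091), NCAPG2 (Gene ID 54892; chromosome 7, 158631169 to 158704804) and NCAPH2 (Gene ID 29781; chromosome 22, 50508224 to 50524780) shared no exon bases with another gene there.

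Partners and regulators of condensin in mitotic chromosome assembly were examined as a list of 22 genes. With palbociclib 18 of the 22 were called lower, against 20.2% of all genes tested, with a median log2 fold change of -1.11. With GSK3326595 14 were called lower, against 10.2% of all genes, with a median of -0.57. TOP2A, the topoisomerase that untangles mitotic chromosomes beside condensin, went from 564 and 619 CPM in DMSO to 178 and 199 CPM with palbociclib and to 318 and 308 CPM with GSK3326595. KIF4A, the chromokinesin that works with condensin I, went from 95.8 and 102 to 39.7 and 44.7 CPM with palbociclib and to 60.0 and 56.3 CPM with GSK3326595. The DMSO libraries were highest for both genes, without overlap. CDK1, which phosphorylates condensin in mitosis, had log2 fold changes of -1.85 ± 0.107 with palbociclib (SE, edgeR adjusted p = 2.17e-07) and -0.93 ± 0.103 with GSK3326595 (edgeR adjusted p = 0.000111). AURKB, the kinase of the chromosomal passenger complex, had -1.83 ± 0.11 and -0.93 ± 0.106 (edgeR adjusted p = 2.76e-07 and 0.000143).

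MCPH1, a known inhibitor of condensin II, was at 25.5 and 23.7 CPM in DMSO, 19.4 and 20.3 CPM with palbociclib and 22.8 and 23.9 CPM with GSK3326595. Its log2 fold change was -0.31 ± 0.107 with palbociclib (SE, edgeR adjusted p = 0.0361), which did not pass with DESeq2 (adjusted p = 0.137), with scaling by library totals (0.0519), with no filter on low counts (0.0527), or when DMSO replicate 1 (0.177), DMSO replicate 2 (0.0854), palbociclib replicate 1 (0.194) or palbociclib replicate 2 (0.115) was left out. With GSK3326595 it was -0.07 ± 0.107 (edgeR adjusted p = 0.68). None of the 3 genes of casein kinase 2, a kinase known to restrain condensin I in interphase, was called against DMSO in the edgeR fit used throughout, and 2 of them were called under alternatives. The catalytic subunit gene CSNK2A1 was at 240 and 266 CPM in DMSO, 217 and 226 CPM with palbociclib and 268 and 297 CPM with GSK3326595. Its log2 change with palbociclib was -0.19 (edgeR adjusted p = 0.114), called with the replicate block (0.0129) and with library totals (0.045). Between palbociclib and GSK3326595 it was called lower (-0.35, edgeR adjusted p = 0.0115), but not when palbociclib replicate 1 (0.118), palbociclib replicate 2 (0.0636) or GSK3326595 replicate 2 (0.0642) was left out. The regulatory subunit gene CSNK2B was at 49.9 and 53.6 CPM in DMSO, 60.1 and 69.3 CPM with palbociclib and 53.2 and 69.4 CPM with GSK3326595. Its log2 changes against DMSO were 0.32 and 0.24 (edgeR adjusted p = 0.0549 and 0.196), both called higher with the replicate block (0.000404 and 0.0138). The first was also called in 6 other alternatives and the second when GSK3326595 replicate 1 was left out. CSNK2A2, the other catalytic subunit gene, had log2 changes of 0.02 and 0.07 (edgeR adjusted p = 0.895 and 0.681).

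TOP2B, the form of the enzyme also made in non-dividing cells, fell with palbociclib (-0.48 ± 0.0841, edgeR adjusted p = 0.000834) and was at 0.07 ± 0.0836 with GSK3326595 (edgeR adjusted p = 0.584).

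The other SMC complexes were examined in the same way. The 5 cohesin core genes had a median log2 fold change of -0.98 with palbociclib, with all 5 called lower against 20.2% of all genes tested. With GSK3326595 the median was -0.34, with 4 called lower against 10.2% of all genes. That count of 4 fell to 1 when DMSO replicate 2 was left out. It was 2 when palbociclib replicate 1, palbociclib replicate 2 or GSK3326595 replicate 1 was left out, or when the edgeR fit held only the 2 groups. RAD21, the cohesin kleisin, went from 381 and 444 CPM in DMSO to 183 and 180 CPM with palbociclib and to 291 and 295 CPM with GSK3326595.

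Of the 6 genes of the SMC5/6 complex, which acts in DNA repair, 5 were called lower with palbociclib, against 20.2% of all genes tested, with a median of -0.58. With GSK3326595 the median was -0.08 and 1 of the 6 was called lower, a share near the 10.2% of all genes called lower. The 5 became 3 when DMSO replicate 2 was left out. The gene called with GSK3326595 was the kleisin NSMCE4A (-0.37 ± 0.0982, edgeR adjusted p = 0.0231), which did not pass when DMSO replicate 2 (edgeR adjusted p = 0.104) or GSK3326595 replicate 2 (0.119) was left out. SMC5 went from 87.8 and 90.2 CPM in DMSO to 53.1 and 47.1 CPM with palbociclib and was at 88.5 and 86.2 CPM with GSK3326595. SMC6 was at 70.5 and 75.5 CPM, 42.7 and 47.0 CPM, and 80.5 and 82.4 CPM in the same order of groups. For both ATPase subunits the palbociclib libraries lay below DMSO. The GSK3326595 libraries overlapped DMSO for SMC5 and lay above it for SMC6, whereas those of SMC2 and SMC4 lay below it. The medians of the lists were compared as descriptions and not tested against each other.

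**Figure D4:**
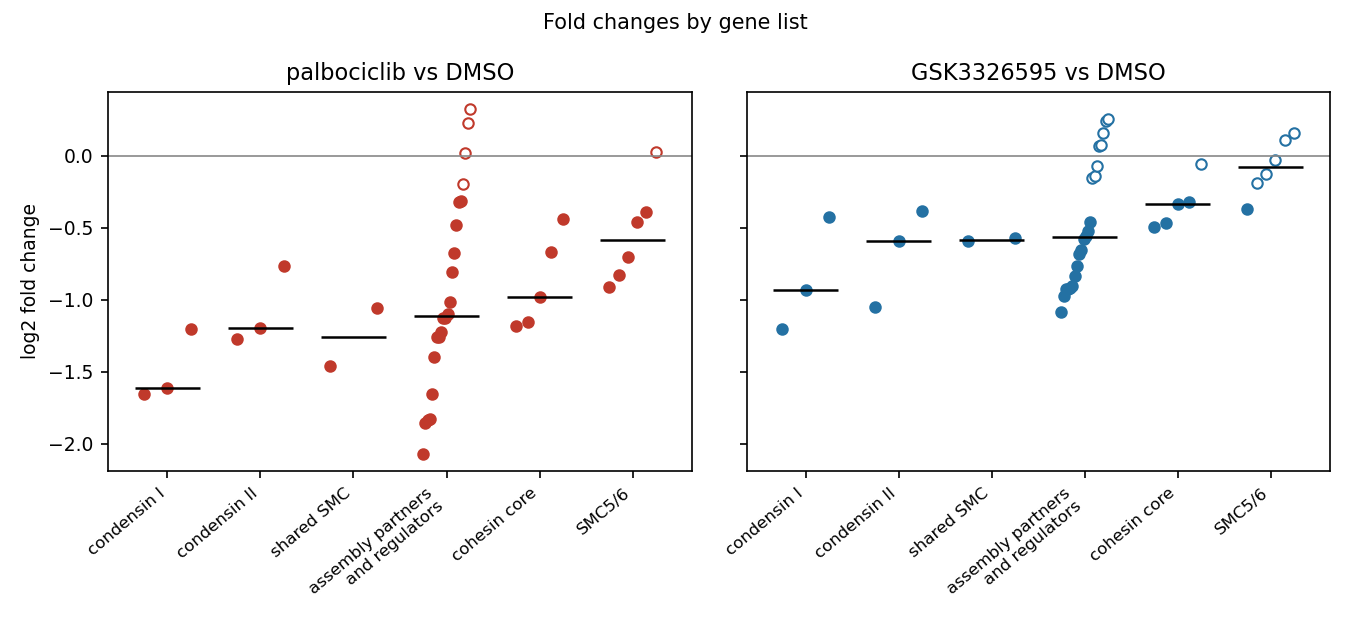
Log2 fold changes of every gene in 6 lists, for palbociclib against DMSO (left) and GSK3326595 against DMSO (right), with filled points for genes called by edgeR, open points for those not called and a bar at the list median. The condensin medians lie at or below -1.20 with palbociclib and at or below -0.58 with GSK3326595, and the SMC5/6 median is nearest to 0 in both panels.

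Of 10122 other genes (mean CPM 10 or more), those whose centred log2 CPM profile over the 6 libraries lay closest to the mean of the condensin I genes were KIFC1, a spindle kinesin (distance 0.0494), MCM7, a replicative helicase subunit (0.113), DTL (0.117), CEP152 (0.118) and KIF11 (0.127). Closest to the mean of the condensin II genes were PDIK1L (0.0814), SGO2, a protector of centromeric cohesin (0.0924), SPAG5 (0.1), PRIMPOL (0.13) and TMEM106C (0.141). Closest to the mean of SMC2 and SMC4 were LBR, the lamin B receptor (0.0785), JADE1 (0.126), RAD21 (0.139), HMGB3 (0.14) and LRRC8C (0.14). The distances describe likeness over 6 libraries in 3 groups and carry no test.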

How the data were processed

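The authors deposited raw read counts per NCBI Gene ID for each of 6 libraries of ribosomal-RNA-depleted RNA (TruSeq, per the labels). The submitters' processing notes name HISAT2, featureCounts 1.6.2, cutadapt 1.7, CASAVA 1.8.2, limma and build hg38. Annotation, strand setting and multi-mapped reads are not described. Symbols came from RefSeq (27745 of 28395 IDs matched), and exon lengths from GENCODE 29, which may differ from the models counted. In edgeR 4.0.16 (R 4.3.3), genes passed filterByExpr (minimum count 10), TMM factors were applied, and all 6 libraries entered one quasi-likelihood fit with a mean for each group (3 residual degrees of freedom). Tests were two-sided, with Benjamini-Hochberg adjustment over 16381 genes. The SE was taken as the size of the log2 change over the root of F, and 95% intervals used the moderated degrees of freedom. Log2 CPM used a prior count of 2. The fit was also run on simulated counts with the same spread for every gene and no replicate effect. That run checks the code and cannot show whether the p-values hold for these data. Libraries within a group varied beyond Poisson noise (chi-square per degree of freedom 5.38 to 10.2). Same-numbered libraries deviated together across groups (correlations 0.179 for DMSO and palbociclib, 0.341 for DMSO and GSK3326595, 0.14 for palbociclib and GSK3326595). The labels do not say what the numbers mark. The main fit did not use the replicate numbers, so its p-values ignore any pairing, and the replicate block was run only as an alternative. Alternatives were DESeq2 1.42.0, its size factors in edgeR, library totals, other filters, the replicate block, 2-group fits and leaving out each library. All 8 condensin genes are named, any gene of the lists could be (1 is not reported here by name), and similar genes are the 5 nearest to each profile. The members and lists were chosen with earlier results of these data known.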

Additional observations from a re-analysis of the deposited data

How the results depend on the processing

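In the 13 alternatives no condensin gene changed direction in any of the 3 comparisons. With palbociclib against DMSO all 8 stayed called; with GSK3326595 against DMSO between 6 and 8, and with palbociclib against GSK3326595 between 5 and 8. With the replicate number as a block, 5769 genes were called for GSK3326595 against DMSO in place of 3081; among the condensin genes the block added the calls of NCAPG2 and NCAPD3 for palbociclib against GSK3326595 and changed no other. Leaving out 1 library at a time gave 4007 to 7259 genes called for palbociclib against DMSO (6470 with all), 1765 to 3230 for GSK3326595 against DMSO and 3312 to 5542 for palbociclib against GSK3326595 (5707 with all). The drops by more than 1.5 times came without palbociclib replicate 1 (4216 and 3312) or replicate 2 (4007 and 3394) in the comparisons with palbociclib, and without DMSO replicate 1 (1765) or replicate 2 (1776) for GSK3326595 against DMSO; a group left with a lone library is assumed to vary like the others. Leaving out a library moved the condensin I minus condensin II difference in mean log2 fold change between -0.49 and -0.34 for palbociclib against DMSO, between -0.21 and -0.15 for GSK3326595 against DMSO, and between -0.31 and -0.16 for palbociclib against GSK3326595. The causes were not tested. Alternatives for the partner, cohesin and SMC5/6 counts were added after seeing the data. The groups hold 2 libraries each, and no change of depth was tried.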
